A study of Mus musculus with 2 samples.

Results

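miR-126 is the microRNA of the *Egfl7* gene, and its mature products were followed here in the muscle wall (tunica muscularis) of the mouse jejunum with and without *Dnmt1*, the maintenance DNA methyltransferase. All mature entries of miR-126a and miR-126b were taken by name. Of the 4 possible products, 3 were among the 1080 mature miRNAs listed, out of 1147 entries in all: mmu-miR-126a-5p, mmu-miR-126a-3p and mmu-miR-126b-3p. *Dnmt1*-KO tissue came from mice in which *Dnmt1* was deleted by a *Cre*-eGFP transgene under the *Myh11* promoter, which is active in smooth muscle cells, those of vessel walls included. *Dnmt1*-WT mice carried the same transgene. All mice were C57BL/6 and 15 days old, and the strain field of both samples gives the transgene together with the Dnmt1lox/lox allele. Each genotype is represented by 1 library, so the differences compare libraries, the spread between animals is unknown, and no p-value was computed. Males and females of each genotype were used, and pooling of their small RNA is not stated. The WT sample also has a description that gives the mutant genotype, and its title and genotype field were followed instead. Small RNA libraries measure neither *Dnmt1* nor endothelial mRNAs, so neither the genotype nor the cell type behind miR-126 was checked in these data.

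miR-126 is made mainly by the endothelial cells that line blood vessels, from an intron of *Egfl7*, which encodes a secreted protein of the vessel wall. It is known for sustaining the response of endothelium to vascular endothelial growth factor and thereby the integrity of vessels. The 3p arm represses *Spred1* and *Pik3r2*, inhibitors of that signalling, and *Vcam1*, an adhesion molecule for leukocytes, whereas the 5p arm represses *Dlk1*. Blood progenitors, megakaryocytes and platelets also carry miR-126. In whole tissue, a larger or smaller share of a cell type cannot be told apart from more or less RNA per cell.

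The miR-126a hairpin lies on chromosome 2 of GRCm38 at chr2:26591357-26591429 on the plus strand, the strand of *Egfl7*. In GENCODE M21 it falls in an intron of 8 of the 19 *Egfl7* transcripts, which is intron 7 of Egfl7-212 (26591064 to 26591663). It also falls in exon 4 of the retained-intron transcript Egfl7-206 and in an intron of the overlapping gene *Gm20532*, while 10 *Egfl7* transcripts do not span it. miR-126b is annotated on the opposite strand (chr2:26591363-26591420). Its 58-base hairpin is the exact reverse complement of bases 7 to 64 of the miR-126a hairpin, so the strand of a read decides between them. The RefSeq hairpins (GRCm38.p6) are given 5′ to 3′ with the 3p product of each in capitals, to show this overlap.
Mir126a hairpin: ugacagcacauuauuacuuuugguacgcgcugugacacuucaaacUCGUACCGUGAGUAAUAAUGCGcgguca
Mir126b hairpin: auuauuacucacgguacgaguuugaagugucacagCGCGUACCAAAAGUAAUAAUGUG

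Of the 4 mature products, 3 were matched in the RefSeq table used here, all but miR-126a-5p. The mature sequences are given with the seed in capitals (bases 2 to 8, which pair with target mRNAs), because the seeds set the products apart from the other mouse miRNAs in RefSeq.
miR-126a-3p: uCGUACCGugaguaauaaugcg
miR-126b-5p: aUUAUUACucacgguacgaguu
miR-126b-3p: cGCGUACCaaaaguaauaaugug

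None of these 3 seeds was found in another of the 1679 mouse mature miRNAs in RefSeq, so miR-126a-3p has no family member by seed among them. RefSeq matched 918 of the 1080 mature names listed here, so the other names were not searched. The seed of miR-126a-3p holds 2 CG pairs, and 19 of the 1679 seeds (1.13%) hold as many or more. miR-126a-3p lies at chr2:26591402-26591423, and 19 of its 22 bases are complementary to miR-126b-5p.

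Both arms of miR-126a were higher in *Dnmt1*-KO than in *Dnmt1*-WT, a direction shared by 47.9% of the 313 mature entries whose mean over both libraries was at least 100. Values are as deposited, where 1 unit is close to 1 read, and the totals were 5741906 in WT and 4754677 in KO. mmu-miR-126a-5p had a value of 4250 in *Dnmt1*-WT and 6864.5 in *Dnmt1*-KO. mmu-miR-126a-3p had a value of 5829.5 in *Dnmt1*-WT and 7417 in *Dnmt1*-KO. For each arm the KO library was thus the higher one, with counting intervals that did not overlap, as shown in the plot of both arms by library. The KO/WT ratio was 1.62 for miR-126a-5p (95% Clopper-Pearson interval 1.55 to 1.68) and 1.27 for miR-126a-3p (1.23 to 1.32). Intervals cover counting error only, and say nothing of animals.

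**Figure D1:**
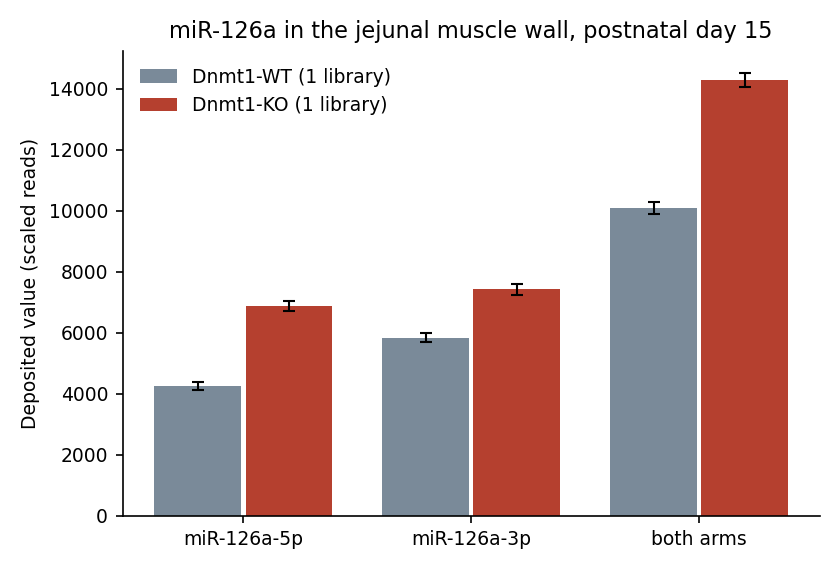
Deposited values (scaled reads) of miR-126a-5p, miR-126a-3p and their sum in the single *Dnmt1*-WT and the single *Dnmt1*-KO library; bars start at 0 and error bars are 95% Poisson intervals of the implied reads. The KO bar is above the WT bar for both arms, and the arms are closer to each other in KO (6864.5 and 7417) than in WT (4250 and 5829.5).

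Summed over both arms, miR-126a had 10079.5 in *Dnmt1*-WT and 14281.5 in *Dnmt1*-KO, a ratio of 1.42 (1.38 to 1.45). As a share of all reads it was 0.176% in *Dnmt1*-WT (95% Wilson interval 0.172 to 0.179%) and 0.300% in *Dnmt1*-KO (0.295 to 0.305%), a ratio of shares of 1.71. The ratio of shares exceeds that of the values because the deposited scale does not equalise the library totals. Among mature miRNAs, miR-126a-3p ranked 59 in WT and 52 in KO, and miR-126a-5p ranked 68 and 54. Both arms were therefore among the abundant miRNAs of the muscle wall in each genotype.

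The antisense miRNA was at the limit of detection. miR-126b-3p had a value of 1 in *Dnmt1*-WT and 1 in *Dnmt1*-KO, against a floor of 3 reads, so no ratio is given. That floor is 5.24e-05% of the WT reads and 6.29e-05% of the KO reads. miR-126b-5p was not among the listed entries, and no value is given for it. The mature reads assigned to this locus thus lay almost wholly on the *Egfl7* strand in both libraries.

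The miR-126a difference was of a moderate size among all miRNAs. Over the same 313 entries, 17.6% were at least 1.5-fold higher and 6.39% at least 2-fold higher. Of the 2 arms, 2 were higher, 1 (miR-126a-5p) was at least 1.5-fold higher and 0 were at least 2-fold higher. The median KO/WT ratio of the 313 entries was 0.984, and their quartiles were 0.713 and 1.31. miR-126a-5p, with 44 entries at a higher ratio, was above the upper quartile, whereas miR-126a-3p, with 85 at a higher ratio, lay between the median and the upper quartile. Among the 136 entries that averaged at least 1000, where 41.2% were higher in KO, 12 had a higher ratio than miR-126a-5p and 31 a higher ratio than miR-126a-3p.

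**Figure D2:**
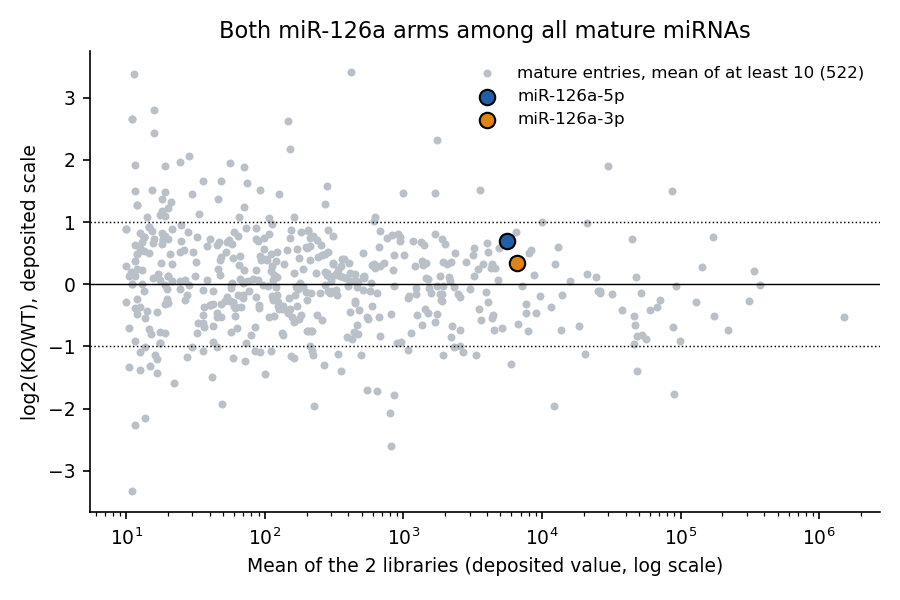
log2(KO/WT) on the deposited scale against the mean of both libraries (log axis) for the 522 mature miRNAs found in both libraries and averaging at least 10; dotted lines mark 2-fold. miR-126a-5p at 0.69 and miR-126a-3p at 0.35 lie above 0 and inside the 2-fold lines, in a range of levels where more entries lie below 0 than above.

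Most miRNAs next to the 2 arms by *Dnmt1*-WT value were lower in *Dnmt1*-KO on the deposited scale, as were most entries averaging at least 1000. The 2 entries next above and the 2 next below each arm were compared, 8 in all, of which 2 were higher in KO and 6 lower. Of the 136 mature entries averaging at least 1000, 41.2% were higher in KO. Next to miR-126a-3p, miR-434-5p (6674 in WT, 9499 in KO) had a ratio of 1.42, while miR-301a-3p (6329 and 3867), miR-93-5p (5604 and 3369) and miR-7a-5p (5179 and 3551) had ratios of 0.611, 0.601 and 0.686. Next to miR-126a-5p, miR-342-3p (4175 and 5024) had a ratio of 1.20, while miR-378c (4473 and 3657), miR-27a-3p (4361 and 2929) and miR-195a-5p (4137 and 3788) had ratios of 0.817, 0.672 and 0.915. Only miR-434-5p exceeded the ratio of the arm it flanks. As a ratio of shares, miR-195a-5p turned higher in KO (1.11), while the other lower entries stayed lower.

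The 3 entries whose log2 ratio was nearest to that of both arms together (0.50), among 134 with a mean of at least 1000, were miR-431-5p, miR-434-5p and miR-381-3p. miR-431-5p went from 1946 to 2766 (ratio 1.42, interval 1.34 to 1.51), and miR-381-3p from 3366 to 4807 (1.43, 1.37 to 1.49). This likeness rests on 1 value per genotype.

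The arms of miR-126a differed in their KO/WT ratio. Both are cut from 1 hairpin, and their balance, a ratio within a library, does not depend on the scaling. The 5p arm made up 42.2% of miR-126a reads in *Dnmt1*-WT (95% Wilson interval 41.2 to 43.1%) and 48.1% in *Dnmt1*-KO (47.2 to 48.9%). The 3p arm was the more abundant in both libraries, with a 5p to 3p ratio of 0.729 in WT and 0.926 in KO. The log2 ratio of the 5p arm exceeded that of the 3p arm by 0.34 (SE 0.04, counting error), which is a 1.27-fold shift towards 5p (1.21 to 1.34).

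A shift of this size between arms was common in these libraries. Among the other 61 hairpins whose arms both had a mean of at least 100, 18 had a smaller shift in either direction and 43 a larger one, and the median was 0.53 log2 units. The shift was towards 5p in 27 of them and towards 3p in 34. Both arms were higher in KO in 25 of the 62 hairpins (40.3%), miR-126a included, and both were lower in 21. The arms of miR-126a were within 2-fold of each other in both genotypes, which held for 11 of the 62, miR-126a included. The median hairpin had arms 6.53-fold apart in WT.

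**Figure D3:**
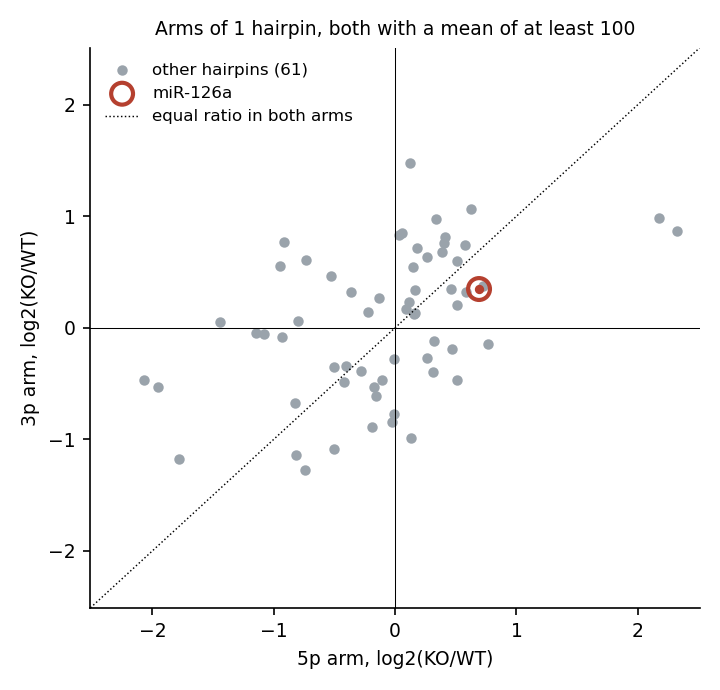
log2(KO/WT) of the 3p arm against that of the 5p arm for the 62 hairpins whose arms both have a mean of at least 100; the dotted line marks equal ratios. miR-126a (ringed) lies in the quadrant where both arms are higher in KO, below the line, at 0.69 for 5p and 0.35 for 3p, and miR-322 lies almost on the same spot.

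Of the 12 hairpins whose 5p and 3p arms each averaged at least 1000, 5 had both arms higher in KO, namely miR-126a, miR-322, miR-434, miR-151 and miR-136. miR-126a-5p had the second highest 5p ratio of the 12, after miR-322-5p at 1.65, and miR-126a-3p the lowest 3p ratio of the 5. miR-322 had a 3p ratio of 1.30, so its arms differed by 0.35 log2 units, close to the 0.34 of miR-126a. miR-151 shifted the opposite way, with 1.11 for 5p and 1.46 for 3p. miR-434 (1.42 and 1.52) and miR-136 (1.38 and 1.28) kept their arms closer together.

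The size of the miR-126a difference depended on the scaling. Each of the 4 other scalings raised all KO values, so none could turn the direction seen on the deposited scale. Setting the library totals equal multiplied every KO value by 1.21, and gave 1.95 for miR-126a-5p (1.88 to 2.03) and 1.54 for miR-126a-3p (1.48 to 1.59). On that scale 65.2% of the 313 entries were higher in KO, 31.3% at least 1.5-fold and 13.1% at least 2-fold. Both arms then passed 1.5-fold, and the interval of miR-126a-5p included 2. The smooth muscle miRNAs took 38.6% of the WT library and 30.4% of the KO library. With totals made equal over the remaining reads, both arms together had a ratio of 1.51 (1.47 to 1.55).

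**Figure D4:**
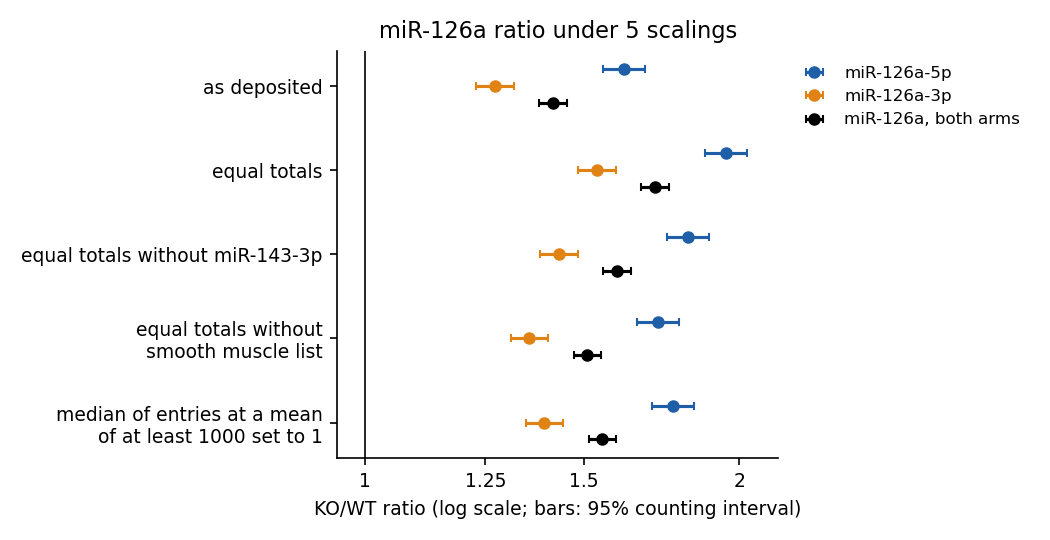
KO/WT ratio (log axis) of miR-126a-5p, miR-126a-3p and both arms together under 5 scalings of the libraries; points are the single ratio and bars its 95% counting interval. Every point lies to the right of 1, from 1.27 for miR-126a-3p as deposited to 1.95 for miR-126a-5p with equal totals.

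Other miRNAs with known roles in endothelium or vessel growth did not share 1 direction. Most of them are also made by other cell types. Of 17 such miRNAs, each listed with a mean of at least 10, 8 were higher in KO and 9 lower, with a median log2 ratio of -0.11, against 0.04 over all 522 mature entries of that level, of which 267 were higher. With equal totals 10 were higher and 7 lower, against 66.9% higher among the 534 mature entries averaging at least 10. The median became 0.17, against 0.31 over the 522 entries. Scaling adds the same log2 value to every entry, so the gap between the list and all entries is fixed. Their ratios ran from 0.630 to 1.83, and 5 of the 17 exceeded that of miR-126a. These 5 were also the only members at least 1.5-fold higher. That is 5 of 17, a share near the 25.5% of the 534 mature entries averaging at least 10.

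Among the vascular miRNAs with a mean of at least 1000, miR-221-3p, which represses the receptor gene *Kit*, went from 1233 to 2161 (ratio 1.75, interval 1.63 to 1.88). miR-322-5p, of the miR-15/16 seed group, went from 1421 to 2341 (1.65, 1.54 to 1.76). These were the members above miR-126a at that level. The miR-23, miR-27 and miR-24 products, cut from a pair of related clusters, were at 0.727 for miR-23a-3p, 1.04 for miR-23b-3p, 0.672 for miR-27a-3p, 0.823 for miR-27b-3p and 0.635 for miR-24-3p. miR-130a-3p stood at 0.630 (22729.8 and 14326), miR-100-5p at 0.804, miR-218-5p at 0.898 and miR-92a-3p at 0.929. The last 2 became higher in KO with equal totals.

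miR-126a was also set against miRNAs of other cells that the muscle wall can hold, as a ratio of summed values that does not depend on scaling. Relative to the smooth muscle list (8 of 8 members listed, all lower in KO against 47.2% of the 534 mature entries averaging at least 10, ratio of summed values 0.652), miR-126a was 2.17-fold higher in KO (2.12 to 2.23). Without miR-143-3p, the member with the highest mean, this became 2.92, and the lowest value with 1 member left out was 2.10, without miR-133a-3p. For every 100 units of smooth muscle miRNA there were thus 0.454 of miR-126a in WT and 0.987 in KO. The smooth muscle list holds both arms of miR-145a but not miR-145b. That entry averaged at least 10 but under 100, and its KO/WT ratio was above 1.5 on the deposited scale. No counting interval was computed for it, so a 1.5-fold difference is not established at this low level. That all members were lower thus depends on the entries listed. An entry of this level has almost no weight in the summed values, so the ratio of summed values hardly depends on leaving miR-145b out.

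The summed blood cell lists had higher KO/WT ratios than miR-126a, at 1.69 for leukocytes and 3.70 for red cells, while single leukocyte members lay on both sides of it. The leukocyte list (8 of 8 listed, none at 0) summed to 5877 in WT and 9959.8 in KO, with 7 of 7 members averaging at least 10 higher, against 52.2% of the 534 mature entries at that level. Relative to it miR-126a was at 0.836 (0.802 to 0.871), which became 0.489 without miR-342-3p, the member that held 71.0% of the list in WT, and 1.06 without miR-142a-5p, so that its direction against this list depended on the members summed. The ratios of these 7 members were 5.01 for miR-142a-5p, 1.82 for miR-142a-3p, 2.43 for miR-223-3p, 3.84 for miR-223-5p, 1.73 for miR-150-5p, 1.40 for miR-155-5p and 1.20 for miR-342-3p. The first 5 exceeded the ratio of miR-126a, miR-342-3p was below it, and the counting interval of miR-155-5p (1.18 to 1.67) included it. The leukocyte list holds only the 3p arm of miR-342. The 5p arm, miR-342-5p, was lower in KO on the deposited scale (208.6 in WT, 190.5 in KO, ratio 0.913), and no interval was computed for it. With equal totals, which multiply every KO value by 1.21, it turned higher in KO. On the deposited scale the 7 of 7 thus depends on the arms listed. The red cell list (4 of 5 listed, none at 0) summed to 12745 and 47217, with 4 of 4 higher, beside the same 52.2%, and miR-126a stood at 0.382 relative to it (0.370 to 0.395). The ratios of its members were 3.71 for miR-486a-5p, 2.98 for miR-451a and 1.90 for miR-144-5p (interval 0.840 to 4.58, values 10 and 19). The WT value of miR-144-3p was under the floor (values 2 and 20.9), so only the interval of its ratio is given (2.55 to 92.3). miR-486a-5p, which muscle also makes, held 98.8% of that list in WT, and without it the value was 0.472 (0.392 to 0.567). The part of blood cells in the miR-126a values was not tested.

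miR-126a was also higher against the whole epithelial and neural lists. Relative to the epithelial list (9 of 9 listed, 14765 and 18427) miR-126a was at 1.14 (1.10 to 1.17), and without miR-215-5p at 0.938 (0.902 to 0.975), while without miR-192-5p it was at 1.42 (1.36 to 1.47). Its size and direction against this list thus depended on the members summed. Relative to the neural list (5 of 5 listed, 4217 and 4596) it was at 1.30 (1.24 to 1.37), and without miR-129-5p at 1.47.

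**Figure D5:**
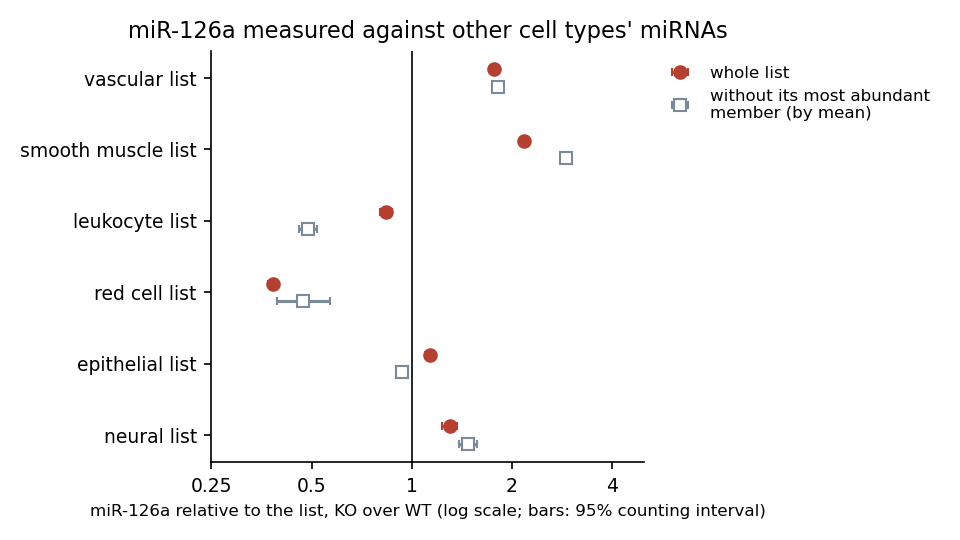
Summed miR-126a relative to the summed miRNAs of 6 lists, KO over WT (log axis), for the whole list (filled circles) and without the member with the highest mean of both libraries (open squares); bars are 95% counting intervals. miR-126a is higher against the vascular (1.77) and smooth muscle (2.17) lists, and lower against the leukocyte (0.836) and red cell (0.382) lists. The epithelial points lie on either side of 1. miR-27b-3p held 48.0% of the vascular list in WT, and without it the value was 1.82. Of the 17 vascular members, 5 had a higher ratio than miR-126a.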

How the data were processed

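Small RNA libraries (Illumina TruSeq Small RNA kit) from jejunal tunica muscularis, 1 per genotype, were sequenced and annotated by a commercial provider against GRCm38/mm10, and the submitters' processing notes name Bowtie. The database release, treatment of multi-mapping reads and scaling are not given in the sources used here. The table deposited by the authors gives each miRNA's expression with 1 decimal and the authors' own fold changes, which were not used. From the values, a step of 1.00286 divided 86.9% of the 229 WT values between 20 and 300 into whole numbers (within 0.05 units), and a step of 0.99723 did so for 89.1% of the 248 KO values, against a median of 7.42% and 7.26% over other steps from 0.98 to 1.02, so the unit is a read count times a factor per library, partly fractional. Implied reads numbered 5725531 and 4767884. Ratios carry exact Clopper-Pearson intervals, shares Wilson intervals, and arm shifts and list ratios intervals from counting error on the log scale. A count of 0 allows up to 3 reads. The reads carry no molecular identifiers, so they need not be separate molecules. Hairpin annotation came from GENCODE M21 and sequences from RefSeq GRCm38.p6, which matched 918 of the 1080 mature names.

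The miRNAs named were the miR-126 entries, the 2 mature entries on each side of each arm by WT value, the 3 nearest ratios at a mean of at least 1000, hairpins and vascular list members at that mean, and the entry of each list with the highest mean. The single leukocyte and red cell members, miR-342-5p, miR-145b, miR-133a-3p and miR-192-5p were named afterwards. The members and lists were chosen with earlier results of these data known. Alternatives were 4 other scalings, pseudocounts of 1 and 10, minimum means of 10 and 1000, and hairpin-named entries. Scripts were tested on simulated data. Python 3.11.15, numpy 2.4.6, pandas 2.3.3, scipy 1.17.1 and matplotlib 3.10.9 were used.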

Additional observations from a re-analysis of the deposited data

How the results depend on the processing

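All 4 other scalings raised the KO values, and a pseudocount cannot turn a ratio, so these alternatives bear on the size of the miR-126a difference and not on its direction. Equal totals gave 1.95 for miR-126a-5p, 1.54 for miR-126a-3p and 1.71 for both arms. Leaving miR-143-3p out of the totals gave 1.82, 1.43 and 1.60, leaving out the smooth muscle list 1.72, 1.36 and 1.51, and the median of entries with a mean of at least 1000 set to 1 gave 1.77, 1.39 and 1.55. On the deposited scale, pseudocounts of 1 and 10 moved neither the ratios nor the shift between arms beyond counting error. The share of hairpins with a smaller arm shift than miR-126a was 29.5%, and 30.5% and 36.4% at a minimum mean of 10 and 1000. Equal totals raised the share of entries at least 1.5-fold higher from 17.6% to 31.3%, and that at least 2-fold higher from 6.39% to 13.1%, while a minimum mean of 10 gave 25.5% and 11.4%, and one of 1000 gave 14.0% and 4.41%. The median log2 ratio of the vascular list turned from -0.11 to 0.17 with equal totals. Leaving out each list member in turn, chosen after seeing the data, turned the direction of miR-126a against 2 lists, from 1.14 to 0.938 for the epithelial list without miR-215-5p and from 0.836 to 1.06 for the leukocyte list without miR-142a-5p. No paired analysis was possible because there was 1 library per genotype. At this depth the counting error of either arm is small beside the effect of the scaling, and the spread between animals is unknown.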
